A study of Mus musculus with 18 samples.

Results

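Mitotic spindle, checkpoint and cytokinesis genes were followed in wild type mouse embryonic fibroblasts over 24 h. The group holds 37 genes of the G2 and M phases of the cell cycle, taken from a list that leaves out kinesins and centromere (Cenp) genes. A gene was a member if a probe set on the array was annotated to it alone, and the probe set with the highest mean was used. All 37 were measured, among 19938 genes tested. The fibroblasts were grown out of C57BL/6 embryos of embryonic day 13 with head and liver removed, and the labels name 2 mice as their origin. All cultures, including those at the earliest time, had been exposed to 100 nM dexamethasone for 2 h, a glucocorticoid that sets the circadian clocks of cultured cells to a common phase. The labels describe the serum in the medium in more than 1 way. RNA was taken 22, 26, 30, 34, 40 and 46 h after this dexamethasone shock, from 3 biological replicates at each time, and each was put on its own Affymetrix array, giving 18 arrays. No culture without dexamethasone and no direct measure of cell division was analysed here.

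Cells that divide make the proteins of mitosis in a burst that begins in G2 and ends at the exit from M phase, so the RNA of these genes is known to be abundant in proliferating cultures and scarce in resting ones. Cyclins and CDK1 drive entry into mitosis, the spindle checkpoint holds the anaphase promoting complex (APC/C) back until all chromosomes are attached, and the central spindle then directs cytokinesis. Transcription of most of these genes is known to depend on the MuvB complex, which pairs with B-MYB and FOXM1 in G2 and with the pocket proteins p107 and p130 in resting cells. In RNA from whole cultures, fewer cells in mitosis and less RNA per cell cannot be told apart.

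Levels are given as log2(intensity + 16) after quantile normalization, so a difference of 1 is a 2-fold difference on this scale, and the level of 1 probe set says nothing about that of another. Median array intensities lay between 196 and 210. The fibroblast markers Vim, Dcn, Col1a2, Thy1 and Fap had mean levels of 13.31, 13.25, 13.21, 7.32 and 5.98 over the 18 arrays. These are readings of different probe sets, so they do not rank the markers or set them against those of other cell types. The summed level of the 10 fibroblast markers was 112.3 to 112.8 on the arrays of 46 h, against 108.5 to 110.1 on those of 22 h, where 6 of the 10 rose, Lum by the most (1.29 ± 0.11). Sums of the 6 epithelium markers were 43.77 to 44.07 at 46 h, against 44.70 to 44.86 at 22 h. Of these Krt19 (-0.93 ± 0.09) and Krt8 (-0.28 ± 0.08) fell, Cldn3 rose (0.22 ± 0.07), and the other 3 did not pass. Sums of the 6 skeletal muscle markers were 45.15 to 45.77 at 46 h, against 44.36 to 44.97 at 22 h, where Ckm (0.28 ± 0.08) and Myod1 (0.16 ± 0.06) rose and the other 4 did not pass. The sums at 46 h and 22 h overlapped for endothelium, macrophages and neural cells. The part of these shifts in the results below was not tested.

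The first comparison asked how the mitosis genes stood at 46 h against 22 h, 24 h earlier. All 37 fell, by limma's test with Benjamini-Hochberg adjustment over all genes at a threshold of 0.05, and their median change was -1.47 log2. In the same comparison 9.73% of all genes were called lower, and the median change of all genes was 0.03. A fall of at least 2-fold was seen in 35 of the 37, where 0.782% of all genes fell that far. The 2 smaller falls were those of Cdk1 and Smc4. On every array of 46 h each of the 37 genes was below every array of 22 h, a separation found in 15.3% of all genes. Of the 156 genes that fell at least 2-fold, 35 were members and 54 were other cell cycle genes from the lists described further on. An F test over the 6 times passed for all 37, with adjusted p from 2.77e-09 to 0.00491, where 19.8% of all genes passed.

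**Figure D1:**
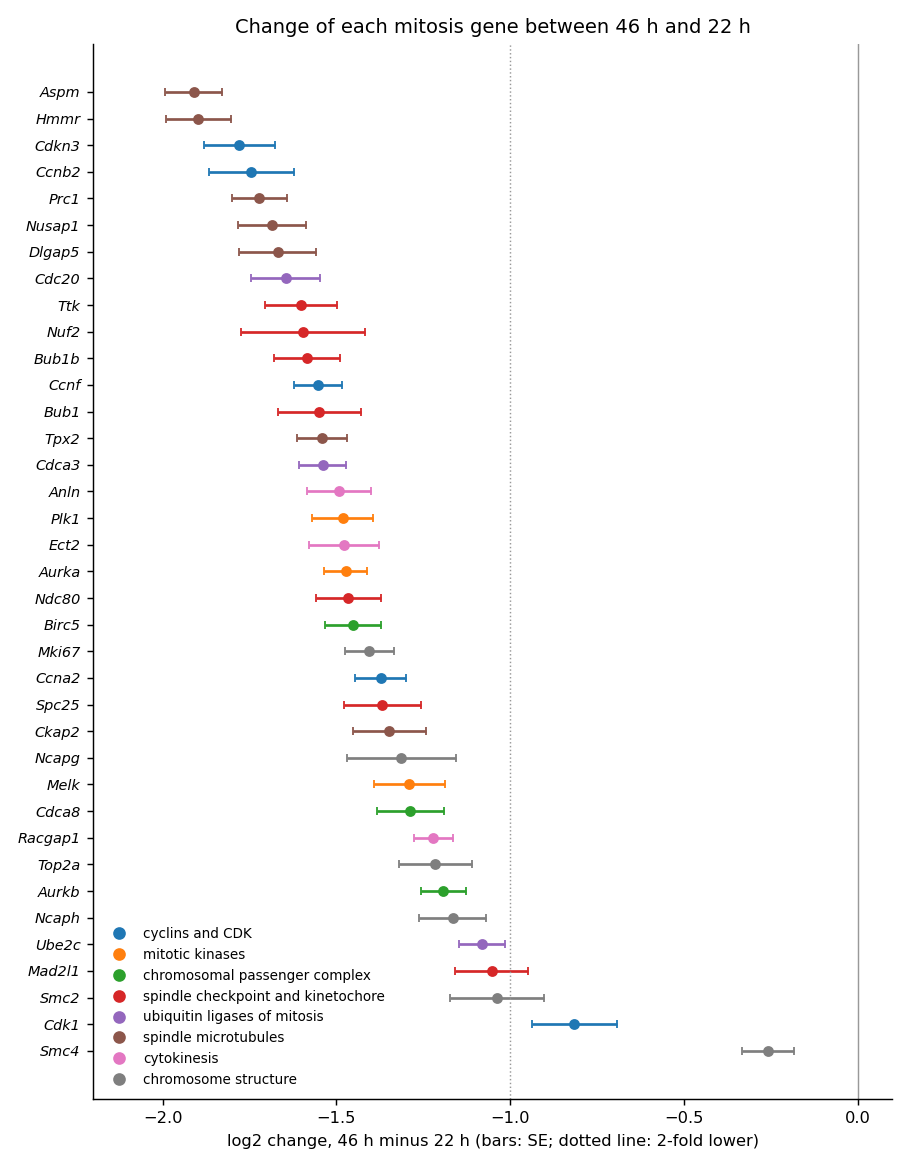
Log2 change of each of the 37 mitosis genes, 46 h minus 22 h, in order of size, with bars for the SE of the fit to 18 arrays and colours for the role of the gene. Aspm and Hmmr lie lowest at -1.91 and -1.90, while Cdk1 at -0.82 and Smc4 at -0.26 are the 2 genes above the dotted line of a 2-fold fall.

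Because the genes moved together, their promoters were read for the elements known from cell cycle genes. These are the CCAAT box, which NF-Y binds, and the letters TTTGAA or TTCGAA, core forms of the cell cycle genes homology region (CHR) that MuvB binds. Both strands of the 250 bases before the RefSeq start (GRCm38.p6) were searched, where TTCGAA reads the same on both, and a CCAAT can share at most an end letter with one of the other motifs. Of the 37 genes 32 had at least 1 promoter window, 34 windows in all, while Ccna2, Aurkb, Dlgap5, Tpx2 and Smc4 were not matched. CCAAT was present in 26 of the 34 windows (76.5%) and in 33.8% of all 32851 promoter windows of the same length. At least 2 copies stood in 18 windows (52.9%), against 10.1% of all. TTTGAA was found in 14 windows (41.2%), against 16% of all, and TTCGAA in 2 (5.88%), against 1.34%. The median change at 46 h against 22 h was -1.48 for the 24 genes with CCAAT and -1.46 for the 8 without it. It was -1.40 for the 13 genes with TTTGAA and -1.48 for the 19 without. The promoters of the 4 genes with the largest falls among those that hold CCAAT together with TTTGAA or TTCGAA are shown, with these motifs on either strand in capitals.
Cdkn3: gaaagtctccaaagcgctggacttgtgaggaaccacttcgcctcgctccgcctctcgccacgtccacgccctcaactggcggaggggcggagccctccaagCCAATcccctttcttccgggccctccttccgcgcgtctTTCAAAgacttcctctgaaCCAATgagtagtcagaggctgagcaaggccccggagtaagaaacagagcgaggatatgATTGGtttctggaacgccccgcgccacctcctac
Ccnb2: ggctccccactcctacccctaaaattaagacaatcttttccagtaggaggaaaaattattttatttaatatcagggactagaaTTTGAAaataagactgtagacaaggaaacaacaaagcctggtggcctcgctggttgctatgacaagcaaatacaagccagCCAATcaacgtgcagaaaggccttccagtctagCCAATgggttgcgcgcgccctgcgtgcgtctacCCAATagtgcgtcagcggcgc
Prc1: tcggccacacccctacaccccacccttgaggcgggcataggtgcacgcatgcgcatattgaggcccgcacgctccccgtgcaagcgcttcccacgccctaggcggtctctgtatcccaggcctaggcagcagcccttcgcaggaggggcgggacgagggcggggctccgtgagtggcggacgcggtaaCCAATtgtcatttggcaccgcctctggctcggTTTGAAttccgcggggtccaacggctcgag
Cdc20: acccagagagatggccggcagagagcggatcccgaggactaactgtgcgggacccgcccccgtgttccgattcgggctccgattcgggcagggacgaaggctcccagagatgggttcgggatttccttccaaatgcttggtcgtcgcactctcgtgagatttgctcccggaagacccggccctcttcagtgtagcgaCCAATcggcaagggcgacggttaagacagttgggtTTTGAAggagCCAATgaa
They lie at chr14:46760291-46760540 on the plus strand (Cdkn3), chr9:70421555-70421804 on the minus strand (Ccnb2), chr7:80294226-80294475 on the plus strand (Prc1) and chr4:118437344-118437593 on the minus strand (Cdc20). The window of Prc1 is the 1 of its 2 that holds both motifs. In Ccnb2 the first bases of the 3 CCAAT boxes stand 87, 54 and 21 bases before the start, so each pair of neighbours is 33 bases apart. In Cdkn3 the 3 boxes are 57 and 58 bases apart, with the last on the other strand. In Cdc20 a TTTGAA begins 18 bases before the start, between CCAAT boxes at 53 and 8 bases, and in Prc1 a TTTGAA begins 30 bases before it. The TTTGAA of Ccnb2 stands farther off, at 167 bases and upstream of its 3 CCAAT boxes. That of Cdkn3 stands at 111 bases, on the other strand. These matches are descriptions of the letters in these windows, and bases after the start were not searched.

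The cyclins among the members and their kinase all fell, and by unequal amounts. Ccnb1, which encodes cyclin B1, was not among the genes tested. Ccnb2, the mitotic cyclin B2, read 9.90, 9.33 and 9.74 on the arrays of 46 h, against 11.44, 11.27 and 11.49 at 22 h. Its change of -1.75 ± 0.12 (SE, n = 18 arrays in the fit) left 29.8% of the level of 22 h (adjusted p = 1.53e-08). Cdkn3, a phosphatase that acts on CDKs, read 8.60, 8.38 and 8.63 at 46 h, against 10.41, 10.16 and 10.38 at 22 h, a change of -1.78 ± 0.10. Ccnf, an F-box protein that marks other proteins for ubiquitination, changed by -1.55 ± 0.07, and Ccna2, the cyclin A of S and G2 phase, by -1.37 ± 0.07. Cdk1, the kinase that cyclins A and B activate, read 11.02, 10.73 and 11.03 at 46 h, against 11.93, 11.46 and 11.82 at 22 h. Its change of -0.82 ± 0.12 left 56.8% of the level of 22 h (adjusted p = 0.00011). The difference between Cdk1 and the cyclins was not tested.

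Among the kinases, Plk1, which acts in spindle assembly and mitotic entry, read 9.28, 9.27 and 9.29 at 46 h, against 10.74, 10.80 and 10.75 at 22 h. The replicates at each of these times lay within 0.06 of each other, and the change was -1.48 ± 0.09. Aurka, the kinase of centrosomes and spindle poles, changed by -1.47 ± 0.06, with the smallest adjusted p of the members (1.36e-10, as for Aspm). Melk, a kinase whose RNA marks proliferating cells, changed by -1.29 ± 0.10. The chromosomal passenger complex corrects faulty attachments and works in cytokinesis. Its kinase Aurkb changed by -1.19 ± 0.06, its subunit borealin (Cdca8) by -1.29 ± 0.10 and its subunit survivin (Birc5) by -1.45 ± 0.08. Incenp, its scaffold, was picked as a partner after its value was seen and changed by -1.12 ± 0.11.

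All 7 genes of the spindle checkpoint and the kinetochore fell by at least 2-fold. Ttk, the kinase that starts checkpoint signalling, changed by -1.60 ± 0.10, Bub1b, which inhibits the APC/C, by -1.58 ± 0.09, and Bub1, the kinase that brings BUBR1, the product of Bub1b, to kinetochores, by -1.55 ± 0.12. Mad2l1, the checkpoint protein that captures CDC20, changed least, by -1.05 ± 0.11, with 10.23, 10.09 and 10.14 at 46 h, against 11.30, 11.06 and 11.26 at 22 h. The NDC80 complex holds microtubules at the kinetochore. Its members Nuf2, Ndc80 and Spc25 changed by -1.60 ± 0.18, -1.47 ± 0.09 and -1.37 ± 0.11. The standard error of Nuf2 was the largest of all members. The fourth subunit of that complex, Spc24, was added as a partner after its value was seen and changed by -0.77 ± 0.10 (adjusted p = 2.71e-05). Of 2 checkpoint partners added in the same way, Bub3 changed by -0.32 ± 0.08 (adjusted p = 0.00552), and Mad1l1 did not pass (-0.12 ± 0.06, adjusted p = 0.165). Whether these partners differ from the members was not tested.

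The genes that feed mitotic proteins to the proteasome fell as well. Cdc20, the activator of the APC/C, read 8.17, 8.13 and 7.95 at 46 h, against 9.69, 9.82 and 9.68 at 22 h, a change of -1.65 ± 0.10. Ube2c, the ubiquitin-conjugating enzyme that works with the APC/C, changed by -1.08 ± 0.07, and Cdca3, a trigger of mitotic entry that is itself degraded after mitosis, by -1.54 ± 0.07. The 12 core subunits of the APC/C, which carry out this step in every cell, had a median change of -0.06. Of these Cdc27 (-0.21 ± 0.06) and Anapc13 (-0.25 ± 0.09) fell, where 9.73% of all genes did, and the other 10 did not pass the test.

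Genes of spindle microtubules had the lowest median of the 8 roles, -1.69 over 7 genes. Aspm, a protein of the spindle poles, read 8.12, 7.85 and 7.99 at 46 h, against 9.96, 9.76 and 9.98 at 22 h. Its change of -1.91 ± 0.08 was the largest fall of all 19938 genes and left 26.6% of the level of 22 h. Hmmr, a spindle assembly factor, had the next largest fall, with 8.16, 7.86 and 8.17 at 46 h, against 10.07, 9.76 and 10.05 at 22 h, a change of -1.90 ± 0.09. Prc1, which bundles the antiparallel microtubules of the central spindle, changed by -1.72 ± 0.08. Nusap1 and Dlgap5, both of which stabilise spindle microtubules, changed by -1.69 ± 0.10 and -1.67 ± 0.11. Tpx2, the activator of Aurora A, changed by -1.54 ± 0.07, and Ckap2, a microtubule-associated protein, by -1.35 ± 0.11. Among the cytokinesis genes, Anln, which encodes the contractile ring protein anillin, changed by -1.49 ± 0.09. Ect2, the exchange factor that activates RhoA at the cleavage site, changed by -1.48 ± 0.10, and Racgap1, the centralspindlin subunit that binds it, by -1.22 ± 0.06.

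**Figure D2:**
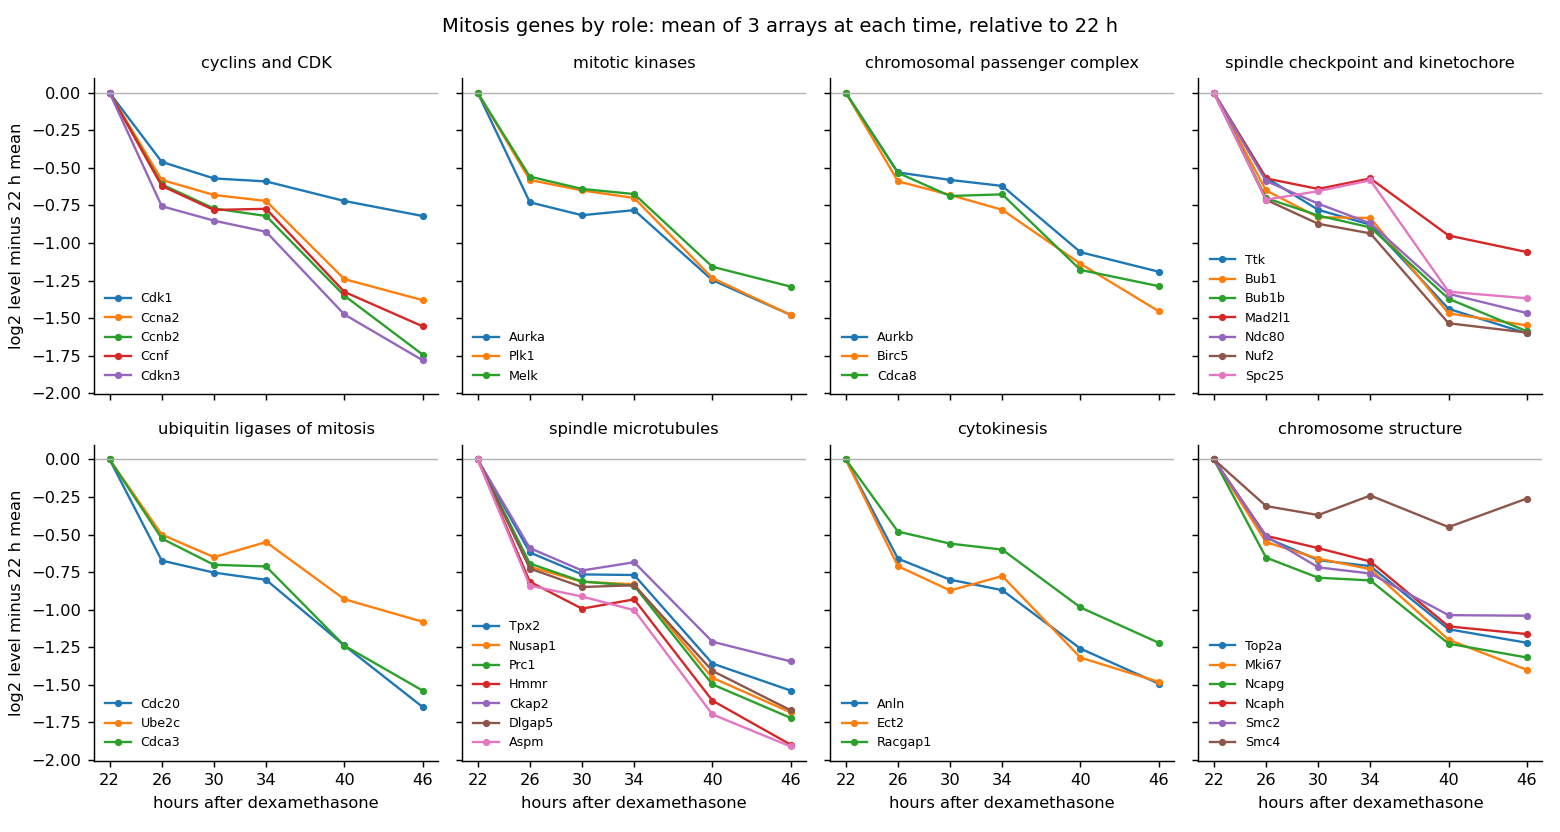
Mean level of each mitosis gene at each time (3 arrays), as log2 minus its mean at 22 h, against hours after dexamethasone, in 8 panels by role. Lines drop between 22 and 26 h and between 34 and 40 h, and Smc4 in the chromosome structure panel is the line that stays closest to 0.

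Genes of chromosome structure had the smallest median change, -1.19 over 6 genes. Mki67, which encodes the Ki-67 protein that coats mitotic chromosomes, changed by -1.41 ± 0.07, and Top2a, the topoisomerase that untangles them, by -1.22 ± 0.10. A second, dimmer probe set of Top2a changed by -0.98 ± 0.12. Condensin I compacts chromosomes, and its own subunits Ncapg and Ncaph changed by -1.31 ± 0.16 and -1.17 ± 0.10. Smc2 and Smc4 form the core shared by condensin I and condensin II. Smc2 changed by -1.04 ± 0.14. Smc4 read 11.19, 11.02 and 11.22 at 46 h, against 11.49, 11.29 and 11.42 at 22 h, a change of -0.26 ± 0.07 that left 83.6% of the level of 22 h (adjusted p = 0.0191). This call was lost without replicate 1 at 22 h (adjusted p = 0.0988), replicate 3 at 22 h (0.0643) or replicate 2 at 46 h (0.106), and when the 6 arrays of 22 and 46 h were fitted alone (0.0511). It was also the 1 member whose lowest mean was at 40 h and not at 46 h. Other condensin genes, added as partners after their values were seen, were Ncapd2 of condensin I (-1.15 ± 0.07) and Ncapg2, Ncapd3 and Ncaph2 of condensin II (-1.23 ± 0.11, -0.54 ± 0.06 and -0.47 ± 0.07), all past the threshold. The differences among these genes were not tested.

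**Figure D3:**
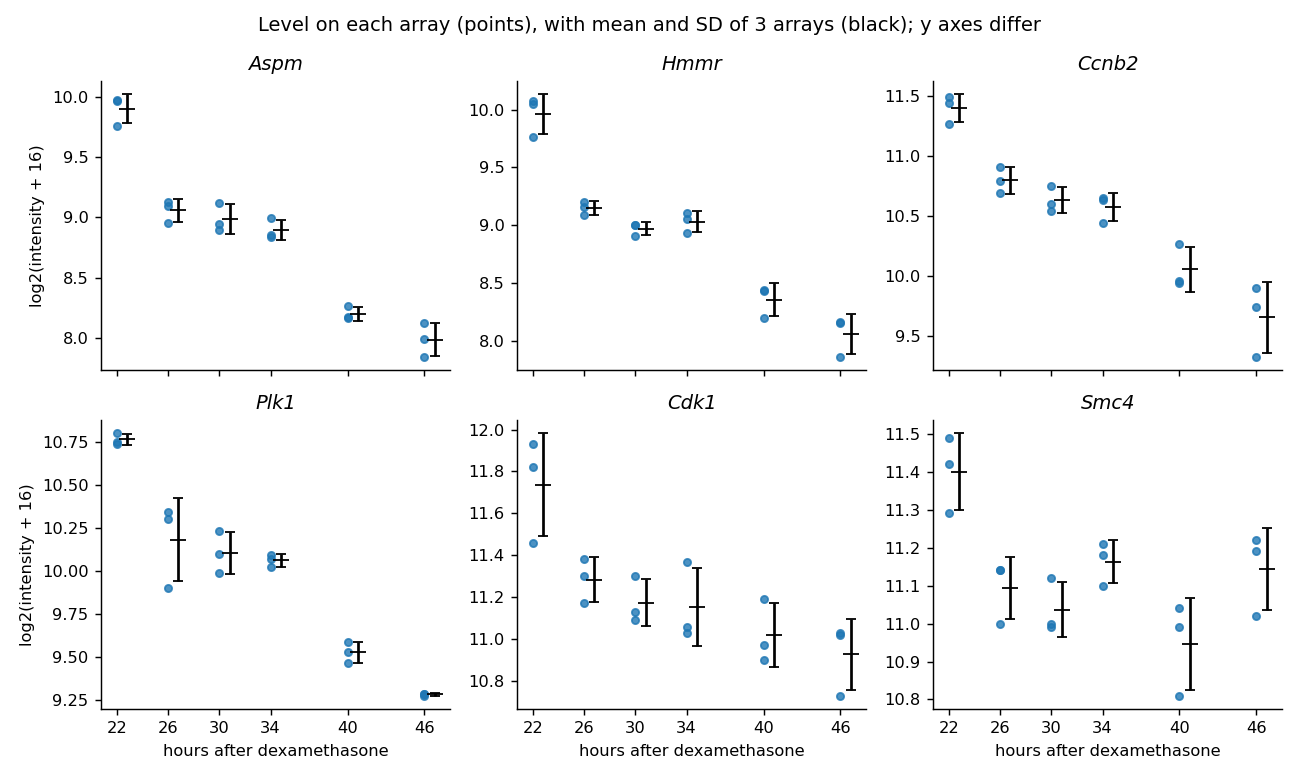
Level of Aspm, Hmmr, Ccnb2, Plk1, Cdk1 and Smc4 on each of 18 arrays, as log2(intensity + 16), against hours after dexamethasone, with the mean and SD of 3 arrays in black and a separate axis for each gene. Aspm on the arrays of 46 h lies between 7.85 and 8.12, below its 9.76 to 9.98 at 22 h, and the values of Smc4 span a much smaller range.

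The second question was when within the 24 h the genes fell. Between 22 and 26 h 35 of the 37 fell, where 1.23% of all genes did, and between 34 and 40 h 28 fell, where 0.727% of all genes did. The median changes over these intervals were -0.59 and -0.50. Between 26 and 30 h (median -0.12), 30 and 34 h (median -0.03) and 40 and 46 h (median -0.16) none of the 37 passed limma's test, where 0%, 0.0903% and 0.0351% of all genes were called. At an unadjusted p under 0.05 the numbers of members in those intervals were 3, 0 and 20 (8.11%, 0% and 54.1%), where the shares of all genes were 2.59%, 9.72% and 8.11%. Over the whole of 26 to 34 h the median was -0.15, and 0 of 37 passed, where 0.0702% of all genes were called. Unadjusted, 8 of the 37 (21.6%) and 12.5% of all genes did. Between 34 and 46 h 32 fell, by a median of -0.67, where 2.51% of all genes fell. Neighbouring intervals share the arrays of 1 time, so their values are not independent. The intervals differ in length, and changes are given per interval and not per hour.

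**Figure D4:**
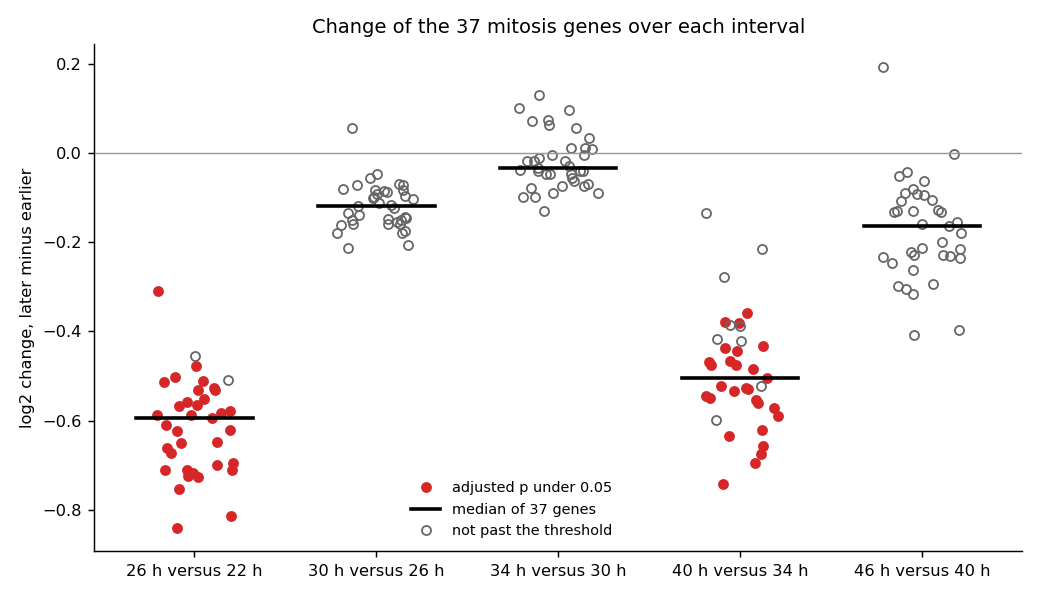
Log2 change of each of the 37 mitosis genes over the 5 intervals, later minus earlier time, with filled red points for genes past the threshold and open points for the others. Medians are -0.59, -0.12, -0.03, -0.50 and -0.16, and filled points appear for 26 h versus 22 h and for 40 h versus 34 h.

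In the first interval Aspm read 9.10, 8.95 and 9.13 at 26 h, against 9.96, 9.76 and 9.98 at 22 h, the largest change of the members (-0.84 ± 0.08, adjusted p = 3.95e-05). Hmmr (-0.81 ± 0.09), Cdkn3 (-0.75 ± 0.10), Dlgap5 (-0.73 ± 0.11) and Aurka (-0.72 ± 0.06) followed. Cdk1 (-0.45 ± 0.12, adjusted p = 0.0642) and Smc2 (-0.51 ± 0.14, adjusted p = 0.0609) did not pass, although every array of 26 h lay below every array of 22 h for all 37 genes, a separation seen in 7.05% of all genes. Without replicate 1 at 22 h, or without replicate 3 at 22 h, 24 genes passed, and the calls of Ccnb2, Melk, Cdca8, Ttk, Bub1, Mad2l1, Nuf2, Top2a, Ncapg, Ncaph and Smc4 were lost. Without replicate 2 at 22 h all 37 passed. Replicate 2 at 22 h had a members' median of -0.15 relative to the mean of 22 h, where the other replicates had 0.09 and 0.06.

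In the interval from 34 to 40 h, Spc25 read 7.81, 7.84 and 7.87 at 40 h, against 8.24, 8.75 and 8.75 at 34 h, the largest change of the members (-0.74 ± 0.11, adjusted p = 0.00291). Aspm (-0.69 ± 0.08), Hmmr (-0.67 ± 0.09), Prc1 (-0.66 ± 0.08) and Bub1 (-0.63 ± 0.12) followed. The 9 genes that did not pass were Cdk1, Ccnb2, Mad2l1, Nuf2, Anln, Top2a, Ncapg, Smc2 and Smc4, with changes from -0.13 ± 0.12 for Cdk1 to -0.60 ± 0.18 for Nuf2. The count of 28 was 14 without replicate 2 at 34 h, 14 without replicate 1 at 40 h and 17 without replicate 1 at 34 h. Of the genes named here, Bub1 was not called without replicate 2 at 34 h or without replicate 1 or 3 at 40 h. From 40 to 46 h the largest changes were those of Cdc20 (-0.41 ± 0.10, adjusted p = 0.152) and Ccnb2 (-0.40 ± 0.12, adjusted p = 0.324). Smc4 was the 1 member with a higher mean at 46 h than at 40 h (0.19 ± 0.07, adjusted p = 0.487).

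Whether the genes fell unevenly was tested directly. A departure from a straight line in time passed in 7 of the 37, Aurka (adjusted p = 0.00553), Aspm (0.0201), Ccnf (0.0399), Tpx2 (0.0399), Hmmr (0.0399), Prc1 (0.0415) and Ube2c (0.0473), where 0.366% of all genes passed. At an unadjusted p under 0.05 it was 33 of 37 (89.2%), and 13% of all genes. The count of 7 was sensitive to single arrays. It was 17 without replicate 2 at 22 h, 1 without replicate 1 or 3 at 22 h or replicate 1 or 2 at 26 h, and 4 without replicate 3 at 26 h. It was 2 without any 1 of the 3 arrays of 30 h, replicate 2 at 34 h, or replicate 1 or 3 at 46 h, and 3 without replicate 1 at 34 h, replicate 3 at 40 h or replicate 2 at 46 h. With array weights 37 passed, and with the replicate number as a block 2 did.

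The sizes of changes over intervals were compared by contrasts chosen after seeing the data. The intervals differ in length, and the changes were not divided by their hours. These contrasts therefore compare sizes and not rates, and an even fall would not give differences of 0. The change from 22 to 26 h was more negative than that from 26 to 34 h in all 37 genes, by a median of 0.46 log2 in size, but 0 passed by limma's test, with 0.00502% of all genes called. At an unadjusted p under 0.05 it was 28 members (75.7%) and 8.02% of all genes. That from 34 to 40 h was more negative than that from 26 to 34 h in all 37 genes too, and 0 passed, with 0.01% of all genes called (unadjusted, 23 members or 62.2%, and 6% of all genes). Against the change from 40 to 46 h, that from 34 to 40 h was more negative in all 37 and passed in 0, with 0.00502% of all genes called (unadjusted, 18 members or 48.6%, and 7.86% of all genes). The median differences were -0.46, -0.36 and -0.33. Some differences were small beside their errors. Cdk1 changed by -0.134 ± 0.122 from 34 to 40 h, against -0.131 ± 0.122 from 26 to 34 h. Cdc20 changed by -0.44 ± 0.10 from 34 to 40 h, against -0.41 ± 0.10 from 40 to 46 h. The members share arrays and vary together, so the signs of the 37 genes are not independent. The shares of all genes with these signs are not given here, so how unusual 37 of 37 is cannot be read. The first contrast passed in 1 gene without replicate 2 at 22 h or replicate 1 at 34 h, and the second in 1 without replicate 1 at 34 h. These contrasts share the arrays of 26, 34 or 40 h with opposite sign, so a shift of 1 of these times moves both of the changes it compares.

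The series follows 1 circadian cycle, and the genes were therefore also tested for a 24 h rhythm. Here 0 of the 37 genes passed limma's test of a 24 h cosine (0 at an unadjusted p under 0.05), where 0.828% of all genes passed (21.3% unadjusted). Fitted amplitudes, from the mean level to the peak, ran from 0.09 for Smc4 to 0.41 for Aspm, with adjusted p from 0.313 to 0.609. The times 22 h and 46 h are 1 full period apart, so such a curve cannot hold the difference between them that all 37 genes showed. That difference stays in the spread the test uses, so the 0 genes passing do not show that a rhythm was absent. With a straight line in time added to the cosine, 0 members and 0.171% of all genes passed.

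Other genes of the cell cycle were read from lists that do not hold the members. Of 12 mitotic kinesins 11 were measured and all 11 fell at 46 h against 22 h, by a median of -1.55, from Kif2c (-1.81 ± 0.09) and Kif4 (-1.81 ± 0.10) to Kif18a (-1.25 ± 0.13). Of 17 centromere proteins 16 fell, by a list median of -1.06, with Cenpe (-1.85 ± 0.11) and Cenpf (-1.80 ± 0.11), which act at the outer kinetochore, at one end, and Cenpb (0.13 ± 0.09, adjusted p = 0.362) at the other. Of 41 other mitosis genes measured 39 fell and 1 rose, by a list median of -1.23. Cdc25c, the phosphatase that activates CDK1, changed by -1.78 ± 0.08, and Cep55, which acts in abscission, by -1.74 ± 0.10. In this comparison 9.73% of all genes fell, 11.5% rose and 21.2% changed either way. The gene that rose was Pttg1, which encodes securin, the inhibitor of separase (0.24 ± 0.05, adjusted p = 0.00161).

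Genes upstream and earlier in the cycle changed less in the median. Of 37 measured genes of G1/S and DNA replication 34 fell, by a list median of -0.70, from Pole, a DNA polymerase subunit (-1.26 ± 0.10), and Uhrf1, which maintains DNA methylation (-1.11 ± 0.09), to Ccne1, the G1/S cyclin E1 (-0.07 ± 0.07, adjusted p = 0.566). Of 17 regulators of the MuvB, E2F and FOXM1 group 8 fell and 0 rose, by a list median of -0.17. At 46 h against 22 h 9.73% of all genes fell. Foxm1, the factor that drives G2/M genes, changed by -1.24 ± 0.06, and E2f8, a repressor of the E2F family, by -0.83 ± 0.09. Rbl1, which encodes p107, fell (-0.75 ± 0.12, adjusted p = 0.000202), as did Mybl2, which encodes B-MYB (-0.52 ± 0.06, adjusted p = 1.28e-05). Rbl2, which encodes p130, did not pass (0.11 ± 0.05, adjusted p = 0.18). Between 22 and 26 h 11 of 11 kinesins, 9 of 17 centromere proteins, 14 of 37 G1/S genes and 2 of 17 regulators fell. Of the 2 regulators 1 was Foxm1 (-0.54 ± 0.06), and 1.23% of all genes fell in this interval. Between 34 and 40 h those that fell were 9 kinesins, 5 centromere proteins, 1 gene of G1/S and 2 regulators, where 0.727% of all genes fell. The 41 other mitosis genes are not counted here for either interval. At 26 h against 22 h their changes ran from Nek2 (-0.80 ± 0.10, adjusted p = 0.000302) and Cep55 (-0.76 ± 0.10, adjusted p = 0.000411) to Pttg1 (0.01 ± 0.05, adjusted p = 0.971). The differences between these lists and the members were not tested.

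**Figure D5:**
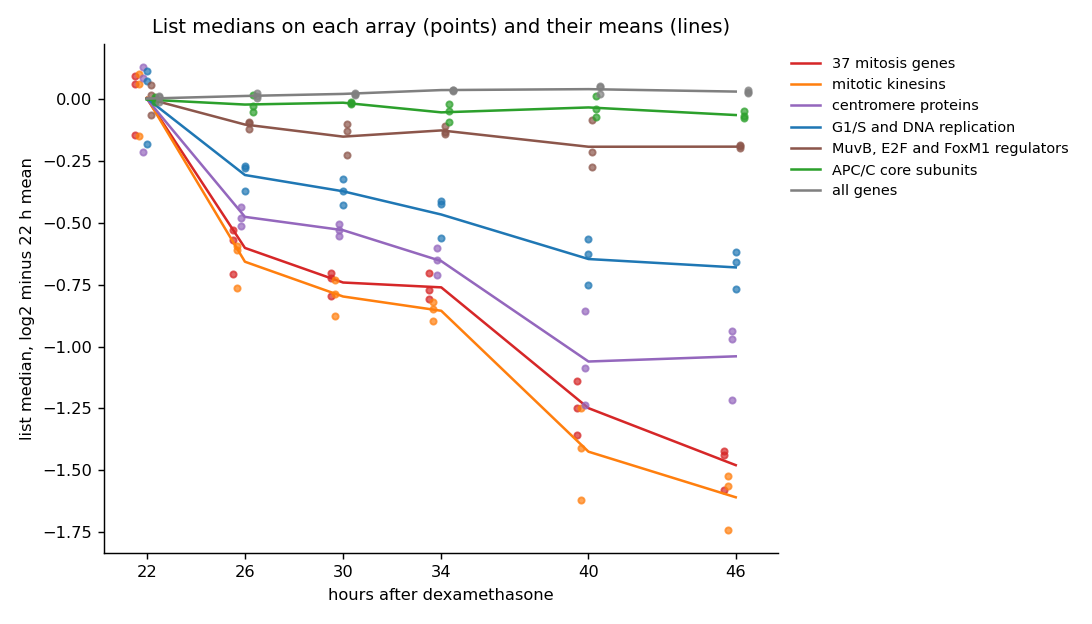
Median of each gene list on each of 18 arrays, as log2 minus the mean of 22 h, against hours after dexamethasone, with lines through the means of 3 arrays. At 46 h the 37 mitosis genes stand at -1.48, G1/S and DNA replication genes at -0.68, the APC/C core subunits at -0.07 and all genes at 0.03.

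The members' median on each array traces the fall. Relative to the mean of 22 h it was 0.09, -0.15 and 0.06 on the arrays of 22 h, while the arrays of 26 h had -0.57, -0.71 and -0.53, and those of 30 h had -0.80, -0.70 and -0.72. The arrays of 34 h had -0.77, -0.70 and -0.81. Lower values followed with -1.36, -1.14 and -1.25 for 40 h, then -1.44, -1.58 and -1.42 for 46 h. The arrays of 26, 30 and 34 h overlapped each other, while those of 22 h lay above and those of 40 and 46 h below all of them. Within times the genes also varied together. Over the residuals from the time means on 18 arrays, the median correlation of 666 pairs of members was 0.70, and 92.5% of pairs were positive. Each pair shares its arrays and their normalization. The first component of the residuals of all genes held 33.8% of their variance. The array with the lowest members' median had the highest value on it at 22 h (replicate 2), 30 h (replicate 1), 40 h (replicate 1) and 46 h (replicate 2). At 26 h the array with the lowest members' median (replicate 2) had the lowest value instead (-7.99, where the others had 3.67 and 4.33), and at 34 h it (replicate 3) had the middle one (3.14). The part of that component in the results was not tested.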

How the data were processed

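Per the labels' protocols, cDNA was made from total RNA by random priming with Affymetrix WT kits. The authors deposited an intensity for each probe set and array, not on a log scale. Affymetrix Expression Console 1.1 and PLIER 2.0 are named in the submitters' processing notes, with no settings stated. The table held 35556 probe sets, of which 21789 carried 1 gene symbol in the platform annotation, 1621 several and 12146 none. The probe set with the highest mean was kept for each of 19938 genes.

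Values were taken as log2(intensity + 16) and quantile normalized. A mean for each of the 6 times was fitted to the 18 arrays together (lmFit and eBayes of limma 3.58.1 in R 4.3.3), with Benjamini-Hochberg adjustment over all genes and two-sided tests. The number of arrays limits the precision. On simulated data for 46 h versus 22 h with 19938 genes, 50 genes were changed at each size, with noise independent between genes. There 28% of changes of 0.25 log2, 90% of 0.5 and 100% of 1 were called. In the measured data 4234 genes were called in this comparison, and residuals were correlated between genes. The simulated rates therefore do not give the power of the test on these data. P-values measure the spread between samples called biological replicates, whose cultures are not described further. No column was left unused.

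The members, gene lists, tests and the genes named were chosen with earlier results of these data known. All 37 members are named, and of the other lists at most the 2 largest and 2 smallest changes. Exceptions, added after their values were seen, were complex partners, Rbl1 and Mybl2, and Foxm1, Nek2, Cep55 and Pttg1 at 26 h. The naming of cell type markers did not follow this limit. Alternatives covered normalization, the added constant, dim genes, probe sets, the replicate block, array weights, the variance model, the threshold, the arrays of 22 and 46 h alone, a straight line beside the cosine, and each array left out.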

Additional observations from a re-analysis of the deposited data

How the results depend on the processing

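Under the alternatives tried, and with each of the 18 arrays left out, 36 to 37 genes fell at 46 h against 22 h, 24 to 37 at 26 h against 22 h and 30 to 34 at 46 h against 34 h. The median change at 46 h against 22 h ran from -1.52 to -1.42 with arrays left out. It was -1.37 with a constant of 64 in place of 16, which damps the log scale by construction. For 40 h against 34 h, the count of 28 was 15 at an adjusted p under 0.01, and 14 to 31 with arrays left out. The departure from a straight line, 7 genes as reported, was 4 with the values as deposited, 2 with a constant of 1, 14 with a constant of 64, 12 without dim genes, 2 with the replicate block, 37 with array weights, 13 with a trended robust variance and 1 at the stricter threshold, and 1 to 17 with arrays left out. The cause was not tested. The change from 22 to 26 h minus that from 26 to 34 h passed in 0 genes as reported, 1 with a constant of 64, 1 without dim genes, 4 with array weights, 1 with a trended robust variance, and 0 to 1 with arrays left out. The change from 34 to 40 h minus that from 26 to 34 h passed in 0 to 1 with arrays left out. Residuals of same-numbered arrays correlated from -0.56 to 0.49, with medians below 0 for each number. The arrays that correlated best with their own number were 0 of 6 for replicate 1, 5 of 6 for replicate 2 and 1 of 6 for replicate 3. Whether the arrays of replicate 2 share a source was not tested. The labels do not say that a number marks a shared culture, so the numbers were not taken to pair the samples. The replicate block moved no other count by over 1.5 times. Of the single genes, the block lost Nuf2, Ncapg and Smc4 at 26 h against 22 h, and Melk, Birc5, Cdc20 and Ncaph at 40 h against 34 h. No gene changed direction where it was called.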
